A study of Homo sapiens with 5 samples.

Results

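Alpha-satellite DNA is the tandem repeat of human centromeres, and its arrays fall into suprachromosomal families that share a monomer pattern. The regions described here lie on the 11 chromosomes whose centromeric arrays belong to family 2, namely the acrocentric chromosomes 13, 14, 15, 21 and 22 and chromosomes 2, 4, 8, 9, 18 and 20. Every alpha-satellite region of at least 1 kb on these chromosomes was taken, whatever its reads, which gave 560 of the 1559 regions of the table, 334 on the acrocentric chromosomes and 226 on the other 6. Another 786 regions of at least 1 kb lay on 13 other chromosomes and served for comparison. The rule takes whole chromosomes, and the table does not class its regions by family, so monomeric or other alpha-satellite DNA on these chromosomes is included.

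The cells were wild-type RPE1, an immortalised human line from retinal pigment epithelium. About 2000000 cells per library were given 5-ethynyl uridine (EU), which cells build into RNA as they make it, and this nascent RNA was captured and sequenced. There were 5 libraries, 1 each from asynchronous cells and from cells in G1, S, G2 and M phase. How the stages were obtained was not given in the sources used here. All 5 groups share the wild-type genotype and the cell line. With 1 library per group no difference below has a replicate check, no test between stages was possible, and each comparison is one of libraries. Every ratio to asynchronous cells uses the same asynchronous library.

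Family 2 arrays are built from 2 alternating monomer types, called D1 and D2, which are arranged in higher-order repeats that recur many times with little divergence. Chromosomes 13 and 21 share 1 such repeat and chromosomes 14 and 22 share another, so that a short read from either member of a pair can often not be placed on one chromosome. The acrocentric chromosomes carry the ribosomal RNA genes on their short arms and can exchange sequence there. At each centromere part of an array binds the histone variant CENP-A and carries the kinetochore. Alpha-satellite RNA has been described as a component of centromeric chromatin.

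Coordinates follow the table and refer to T2T-CHM13, the assembly of a human cell line with complete centromeres. Array lengths differ between genomes, and those of RPE1 are not known from these files, so reads per kb refer to the CHM13 length. No annotation or sequence of this build was used here, so neither genes nor repeat letters are given. The 560 regions covered 35.9 Mb, of which 14.2 Mb lay on the acrocentric chromosomes. Their lengths ran from 1004 to 499999 bp with a median of 10081 bp, and long arrays are cut into blocks of up to 500 kb. Regions at most 100 kb apart were joined, which gave 65 tracts. Of these, 11 covered at least 1 Mb and are called long tracts.

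The libraries held 27848516 to 49371478 reads, the fewest in G1 and the most in G2. Values are given below in the order asynchronous, G1, S, G2 and M. The family 2 regions received 7875, 6794, 8978, 8608 and 5975 reads. Most regions had no reads at this depth: 364 of the 560 (65.0%) had no read in any library, against 71.2% of the regions on other chromosomes. A region without reads in 1 library may hold up to 3 reads, which is 0.0608 RPM (reads per 1000000 library reads) in G2 and 0.108 RPM in G1. Even read numbers were found in 59.3% to 68.5% of the regions with reads, most often in M, so mates of a pair may have been counted apart. Intervals are exact 95% intervals on reads and cover counting error only, because without molecular identifiers PCR copies of 1 molecule count as several reads. Where it changes the reading, the interval with reads divided by 2 is given too.

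Family 2 RNA was lowest in G2 and M. Summed over the 560 regions it stood at 248, 244, 236, 174 and 185 RPM. The log2 ratio to asynchronous cells was -0.51 for G2 (-0.55 to -0.46) and -0.42 for M (-0.47 to -0.37). It was -0.023 for G1 (-0.070 to 0.024) and -0.073 for S (-0.12 to -0.03). The G1 library thus lay within counting error of asynchronous cells, whereas G2 and M lay below it. The largest step between neighbouring stages was from S to G2, at -0.44.

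The other chromosomes had another order. Their 786 regions stood at 41.1, 49.2, 34.8, 34.7 and 52.6 RPM, so that M was their highest library. The log2 ratio to asynchronous cells was 0.36 in M, against -0.42 for family 2, and the difference was -0.78 (-0.90 to -0.67). In G1 family 2 lay lower than the others by -0.28 (-0.40 to -0.16) and in S higher by 0.17 (0.05 to 0.29), which with reads divided by 2 reached 0. Accordingly the family 2 share of all reads in regions of at least 1 kb was 85.8%, 83.2%, 87.1%, 83.4% and 77.8%, lowest in M. Without the 3 tracts with most reads, described next, the difference in M was -0.38 and that in S turned to -0.15 (-0.35 to 0.04).

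**Figure D1:**
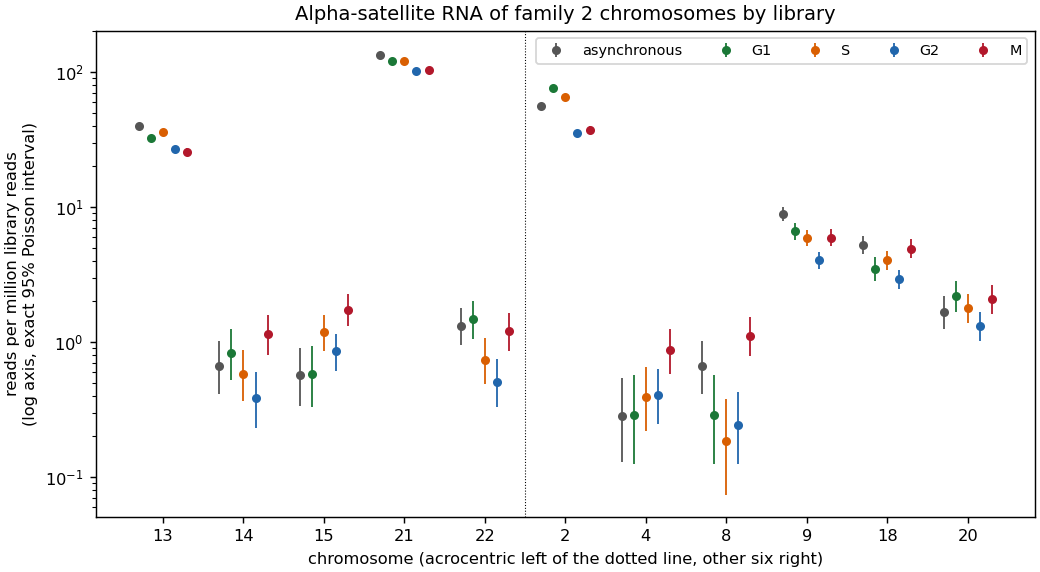
RPM of the family 2 regions (log axis) for each of the 11 chromosomes, with 1 point per library and exact 95% counting intervals. Chromosome 21 stands at 102 to 133 RPM, chromosomes 2 and 13 follow, and chromosomes 4, 8, 14 and 15 stay below 2 RPM in each library.

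A few tracts held nearly all of this RNA. The 3 tracts with most reads, 1 each on chromosomes 21, 2 and 13, consist of 12 of the 560 regions and took 91.8%, 93.2%, 93.5%, 93.6% and 89.2% of the family 2 reads. By chromosome, 21 came first in each library, followed by 2 and then by 13. The remaining 8 chromosomes were far lower: chromosome 9 ranged from 4.03 RPM in G2 to 8.91 in asynchronous cells and chromosome 18 from 2.92 to 5.26. Chromosome 20 ranged from 1.32 to 2.19 RPM and chromosome 22 from 0.506 to 1.47. Chromosome 15 lay between 0.567 and 1.73 RPM, chromosome 14 between 0.385 and 1.15, chromosome 8 between 0.184 and 1.11 and chromosome 4 between 0.283 and 0.867. Without the 3 tracts the family 2 total was 20.2, 16.7, 15.4, 11.2 and 19.9 RPM, and M was then close to asynchronous cells.

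The acrocentric chromosomes differed from the other 6 in G1, S and G2. They stood at 176, 155, 158, 130.2 and 133 RPM, highest in asynchronous cells. The other 6 stood at 72.4, 88.7, 77.6, 44.1 and 52.3 RPM, highest in G1. The log2 ratio of G1 to asynchronous cells was -0.18 for the acrocentric group and 0.29 for the other 6, a difference of -0.47 (-0.57 to -0.37). In S the difference was -0.25 (-0.35 to -0.16) and in G2 it was 0.28 (0.19 to 0.38). In M the groups had similar ratios of -0.40 and -0.47, with a difference of 0.06 (-0.04 to 0.17).

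These differences changed without the 3 tracts. Chromosomes 21 and 13 held nearly all acrocentric reads and chromosome 2 most reads of the other 6. Without the 3 tracts the acrocentric group stood at 2.83, 3.30, 2.81, 2.01 and 4.43 RPM and was highest in M, at a log2 ratio of 0.64 to asynchronous cells (0.25 to 1.04). The other 6 stood at 17.4, 13.4, 12.6, 9.20 and 15.5 RPM, with -0.17 in M (-0.34 to 0.01). In level the acrocentric group was then below the other 6 in each library. Its log2 ratio to asynchronous cells was above theirs in each stage. The difference was 0.81 in M (0.39 to 1.23) and 0.60 in G1 (0.14 to 1.06). It was smaller in S, at 0.45 (0.013 to 0.90), and in G2, at 0.42 (-0.027 to 0.87). The acrocentric values rest on 90 to 143 reads per library. With reads divided by 2 the intervals held 0 in G1, S and G2 but not in M (0.22 to 1.40). The direction of the acrocentric difference in G1 and S thus turned with the tracts kept. Without the tracts, most reads of the other 6 were from chromosomes 9 and 18. These had 283 and 167 of the 553 reads in asynchronous cells, and 191 and 159 of 501 in M. Both stood lower in M than in asynchronous cells. Chromosomes 4, 8 and 20 stood higher, at 0.867, 1.11 and 2.07 RPM against 0.283, 0.661 and 1.67. The comparison is thus mainly one with chromosomes 9 and 18, and it was not repeated without them. The difference in M therefore does not describe the other 6 as a whole. Over the long tracts without chromosomes 13 and 18 the difference in M was -0.059 (-0.65 to 0.53).

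**Figure D2:**
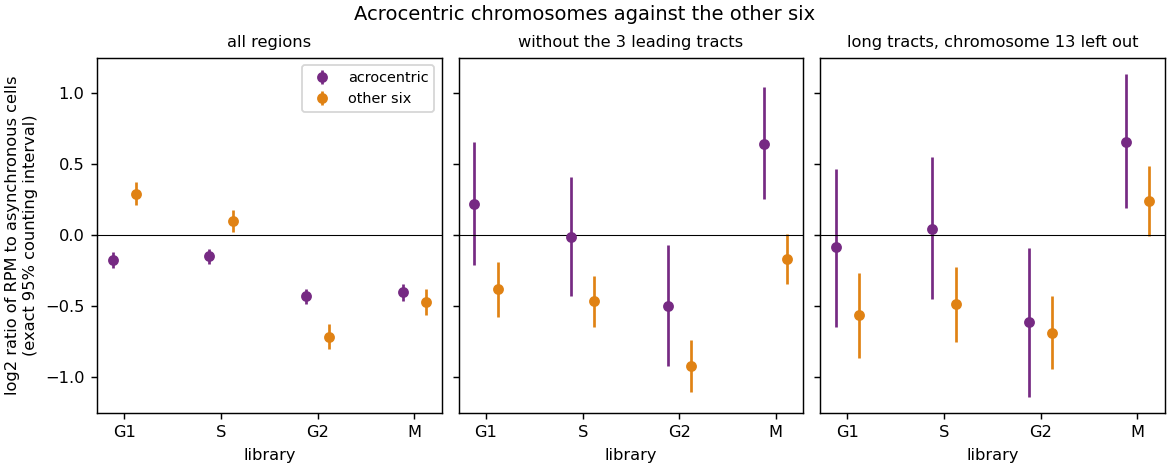
Acrocentric chromosomes and the other 6, with all regions, without the 3 tracts with most reads and over long tracts. Points are log2 ratios of RPM to asynchronous cells with 95% counting intervals. The last panel holds the long tracts without chromosome 13. With all regions the acrocentric ratio is below that of the other 6 in G1 and S and above in G2. In the other panels it is above in each stage, within counting error for all 4 stages in the last panel.

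The chromosome 21 tract (10962854 to 11341422) was the richest and had an even density. It consists of a 37.1 kb region with 448, 300, 493, 525 and 342 reads and a 341 kb region with 3781, 3043, 4067, 4489 and 2987 reads. Per length the first stood at 0.380, 0.290, 0.348, 0.286 and 0.285 RPKM (reads per kb and 1000000 library reads) and the second at 0.349, 0.320, 0.313, 0.266 and 0.271. The ratio of the first to the second ran from 0.906 in G1 (0.802 to 1.02) to 1.11 in S (1.01 to 1.22), so both parts of the tract were read at nearly the same density in every library.

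The chromosome 13 tract (15547602 to 17576685) was 19.4-fold less dense than that of chromosome 21. Its mean over the libraries was 0.0157 RPKM against 0.305. It holds 4 blocks of 452 to 500 kb, and their densities in asynchronous cells were 0.0189, 0.0174, 0.0204 and 0.0230 RPKM. The fourth block (17000001 to 17500000) had 366, 263, 425, 406 and 279 reads and was the densest of the 4 in each library. Relative to the first 3 blocks together its density was 1.22-fold in the asynchronous library (1.07 to 1.38) and 1.56-fold in that of M (1.34 to 1.81), with 1.25, 1.36 and 1.32 in between.

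Reads of chromosomes 21 and 13 did not keep 1 ratio. The chromosome 21 tract had 3.37, 3.76, 3.37, 3.81 and 4.09 times the reads of the chromosome 13 tract, highest in M (3.79 to 4.43) and lowest in asynchronous cells (3.16 to 3.59) and S (3.17 to 3.58). On the log2 scale the ratio to asynchronous cells was higher on chromosome 21 than on chromosome 13 by 0.27 in M (0.13 to 0.42), also with reads divided by 2 (0.07 to 0.48). In G1 it was higher by 0.16 (0.02 to 0.30) and in G2 by 0.18 (0.05 to 0.30), and with reads divided by 2 both of these intervals held 0. Both tracts were lower in M than in asynchronous cells, and how a read shared by both was placed was not given in the sources used here.

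The chromosome 2 tract (95001217 to 95077539) had the highest density of the 3. It stood at 0.753, 1.03, 0.891, 0.478 and 0.504 RPKM, highest in G1, and lies apart from the long tract of that chromosome (92297396 to 94695223). The long tract covers 2.39 Mb and had only 19, 12, 8, 14 and 19 reads, a mean of 0.000176 RPKM. The tract at 95 Mb is made of a 71.5 kb region with 1686, 2051, 2418, 1662 and 1169 reads and a region of 1516 bp (95001217 to 95002733) with 61, 46, 59, 62 and 20 reads. The stage pattern of the short region was not that of the long one: it was highest in asynchronous cells, at 1.27, 1.09, 1.02, 0.828 and 0.408 RPKM. Against asynchronous cells M was at a log2 ratio of -1.63 in the short region and -0.55 in the long one, a difference of -1.08 (-1.82 to -0.34), and with reads divided by 2 it still lay below 0 (-2.12 to -0.04). In G1 the difference was -0.69 (-1.25 to -0.13), or -1.48 to 0.10 with reads divided by 2.

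The 10 long tracts other than that of chromosome 13 lie on chromosomes 2, 4, 8, 9, 14, 15, 18, 20 and 22, with 2 on chromosome 15. Together they had 318, 203, 296, 310 and 407 reads, or 10.01, 7.29, 7.77, 6.28 and 12.6 RPM. The M library was the highest. It exceeded asynchronous cells 1.26-fold (1.08 to 1.46) and the G2 library 2.01-fold (1.73 to 2.33). Even read numbers made up 60.0% of their regions with reads in asynchronous cells and 67.2% in M, and their part in the ratio was not tested. The long tracts of other chromosomes stood at 33.8, 38.0, 28.9, 28.5 and 41.8 RPM. Their log2 ratio of M to asynchronous cells was 0.31, against 0.33 here, a difference of 0.02 (-0.22 to 0.26). In G1 and G2 the long family 2 tracts without chromosome 13 lay lower than those of other chromosomes, by -0.63 (-0.91 to -0.35) and -0.43 (-0.68 to -0.18), and both intervals stayed below 0 with reads divided by 2.

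Long tracts ranked very unequally by density. Over the 5 libraries the chromosome 13 tract had 21.5 times the density of the next (19.9 to 23.3, pooled reads), that of chromosome 18 at 0.000739 RPKM. The first tract of chromosome 15 (15404759 to 16555632) followed with 0.000480 RPKM, the second (16664464 to 17742481) with 0.000358 and chromosome 9 with 0.000299. In pooled reads the first exceeded the second 1.49-fold (1.07 to 2.07), an interval that held 1 with reads divided by 2 (0.931 to 2.40). The second and chromosome 9 did not differ beyond counting error (0.846 to 1.56). Chromosomes 20, 22, 14, 2 and 8 lay between 0.000174 and 0.000229 RPKM, and no neighbouring pair among these 5 differed beyond counting error. Chromosome 4 was lowest with 7.40e-05 RPKM, 36 reads in all, and chromosome 8 stood 2.26-fold above it in pooled reads (1.26 to 4.21 with reads divided by 2).

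By stage, 7 of the 11 long tracts had a higher level in M than in the asynchronous library, with 3 intervals above 1 (2 with reads divided by 2), and 1 of the others had an interval below 1. Of the 23 long tracts over all chromosomes, 73.9% were higher in M. Higher in G1 was 1 of the 11 (30.4% of the 23). Both S and G2 had 3 higher (30.4% and 34.8%). With G2 as the reference, 9 of 11 were higher in M, 7 of these with an interval above 1 and 4 with reads divided by 2, where 87% of the 23 were higher. These shares are close to those over all long tracts except in G1.

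**Figure D3:**
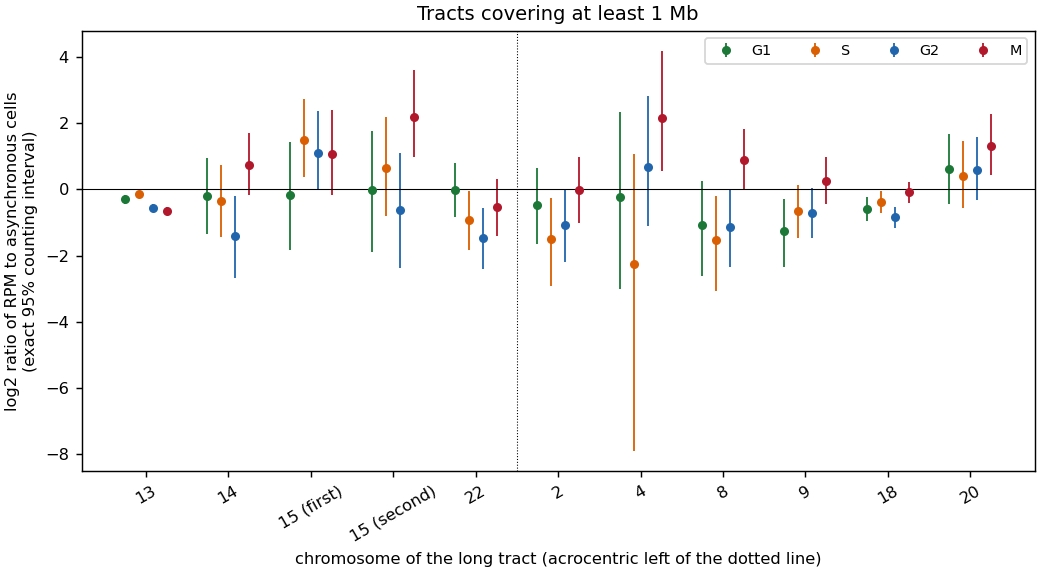
Log2 ratio of RPM to asynchronous cells for the 11 long tracts, with exact 95% counting intervals, acrocentric tracts left of the dotted line. The second chromosome 15 tract and those of chromosomes 4 and 20 lie above 0 in M, and that of chromosome 13 lies below.

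Without chromosome 13, the long tracts of the acrocentric group and of the other 6 did not differ beyond counting error. The 4 acrocentric tracts without chromosome 13 had 63, 52, 78, 64 and 101 reads and log2 ratios of -0.087, 0.046, -0.61 and 0.66, in stage order. The 6 others had 255, 151, 218, 246 and 306 reads and log2 ratios of -0.57, -0.49, -0.69 and 0.24. The differences were 0.48, 0.53, 0.075 and 0.42, and all 4 intervals held 0. With the chromosome 13 tract, which holds most of these reads, the difference in M was -0.79. Chromosome 18 weighed heavily on the side of the 6. Without it they had 88, 54, 65, 102 and 147 reads, M was 1.64-fold asynchronous cells (1.25 to 2.16) and the difference in M was -0.059. In S it was then 0.75 (0.079 to 1.41), and its interval held 0 with reads divided by 2. From S to G2 the acrocentric tracts changed by -0.66 and the 5 others by 0.28, a difference of -0.94 (-1.59 to -0.28). Dividing the reads by 2 widened this to -1.86 to -0.0094.

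The second tract of chromosome 15 was highest in M. It had 7, 6, 13, 7 and 32 reads, a 4.49-fold excess of M over asynchronous cells (1.95 to 12.1) and a 6.98-fold excess over G2 (3.03 to 18.7). The first tract had 9, 7, 30, 30 and 19 reads, or 0.283, 0.251, 0.788, 0.608 and 0.588 RPM, highest in S. There S was 2.78-fold asynchronous cells (1.29 to 6.66), but with reads divided by 2 this interval held 1. G2 and M, at 2.14-fold (0.992 to 5.13) and 2.07-fold, were within counting error. Its block at 16000004 to 16500000 had 6, 6, 23, 15 and 4 reads, and S was 3.20-fold asynchronous cells (1.27 to 9.60, or 0.854 to 17.7 with reads divided by 2). Neighbouring tracts of 1 chromosome thus had their highest library in different stages, on few reads.

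The long tracts of chromosomes 4, 8 and 20 had their highest level in M. The chromosome 4 tract (52115487 to 54870510) had 4, 3, 1, 10 and 18 reads, with M at 4.42-fold asynchronous cells (1.46 to 17.97), although with reads divided by 2 the interval held 1. The most read region of chromosome 4 lay outside that tract (50000001 to 50433572) and had 3, 0, 2, 4 and 6 reads. The chromosome 8 tract (43846447 to 46551285) had 17, 7, 7, 12 and 32 reads, with M at 1.85-fold asynchronous cells (0.997 to 3.55), an interval that held 1. Its block at 46000006 to 46331288 led with 3, 2, 0, 2 and 9 reads.

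Chromosome 20 held 2 kinds of tract. The long tract (26281861 to 29521048) had 15, 20, 24, 35 and 38 reads, with M at 2.49-fold asynchronous cells (1.34 to 4.87). Its block at 27000001 to 27499999 had 0, 2, 2, 8 and 11 reads, and the exact interval of the ratio of M to asynchronous cells starts at 2.47. Its block at 28000001 to 28500000 had 2, 2, 0, 4 and 12. Both blocks were named for their high ratios of M to asynchronous cells. The interval uses the same reads, so it is no separate support for a higher level in M. A tract of 13.6 kb before the long tract (25969231 to 25987435) had 30, 35, 41, 17 and 29 reads. It stood at 0.0666 RPKM on average, far denser than the 0.000229 RPKM of the long tract. There the region at 25972238 to 25978066 was lowest in G2, with 15, 21, 17, 4 and 13 reads and G2 at 0.172-fold asynchronous cells (0.0414 to 0.538).

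Most reads of chromosome 9 came from regions outside its long tract. The long tract (44938600 to 47609569) had 33, 12, 25, 31 and 40 of the 283, 184, 224, 199 and 191 reads. A group of 5 regions at 77 to 80 Mb had 161, 127, 138, 121 and 126 reads, and 5 regions at 42 Mb had 78, 26, 30, 27 and 16. The regions at 42 Mb were highest in asynchronous cells and lower in every stage: at 0.202-fold in M (0.110 to 0.348), 0.223-fold in G2 (0.138 to 0.349), 0.321-fold in S (0.203 to 0.494) and 0.380-fold in G1 (0.234 to 0.599). The regions at 77 to 80 Mb were at 0.900, 0.715, 0.483 and 0.769. The difference in log2 ratio was -1.93 in M (-2.78 to -1.09) and -1.24 in G1 (-1.97 to -0.52), with -1.16 and -1.12 for S and G2. Both groups of regions were chosen after their reads were seen, so these intervals cannot support the difference. All 4 differences rest on the same asynchronous reads, so they are not 4 separate observations.

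**Figure D4:**
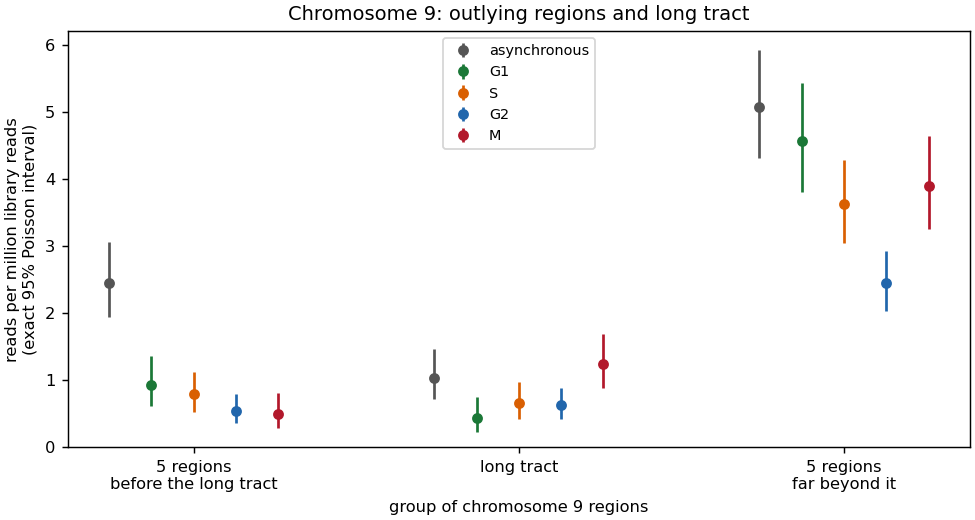
RPM of 3 groups of chromosome 9 regions in the 5 libraries, with exact 95% counting intervals. The regions at 42 Mb stand at 2.46 RPM in asynchronous cells and at 0.495 in M. The long tract is at its highest in M, at 1.19-fold asynchronous cells (0.733 to 1.95), which is within counting error.

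Among the regions at 42 Mb, the region at 42421611 to 42483230 had 39, 9, 7, 14 and 3 reads and that at 42723521 to 42745143 had 33, 14, 23, 7 and 10. The first was lowest in M, at 0.0756-fold asynchronous cells (0.0149 to 0.238), and the second in G2, at 0.136-fold (0.0509 to 0.314). Both regions were named for their low ratios, so their intervals are no separate support. Most reads at 77 to 80 Mb came from a pair of nearly equal length in opposite orientation, 5735 bp at 77599466 to 77605201 on the complement and 5732 bp at 79941018 to 79946750 on the plus strand. The first had 101, 56, 77, 67 and 66 reads and the second 52, 48, 48, 35 and 50. The first was the denser in asynchronous cells, at 1.94-fold (1.38 to 2.77), in S at 1.60-fold and in G2 at 1.91-fold, and with reads divided by 2 the S interval held 1. In G1 and M the interval of the ratio held 1.

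Other chromosome 9 regions had their highest library in other stages. The region at 44721760 to 44775912 was highest in S, with 9, 15, 30, 16 and 7 reads and S at 2.78-fold asynchronous cells (1.29 to 6.66, or 0.925 to 10.5 with reads divided by 2). Neighbouring blocks of the long tract differed in asynchronous cells and S only, on few reads. The block at 46500001 to 47000000 had 15, 2, 1, 2 and 10 reads and that at 47000001 to 47500000 had 2, 3, 10, 2 and 11. The region at 77289241 to 77347987 was highest in G1, with 6, 19, 11, 11 and 10 reads.

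The chromosome 18 tract (15542846 to 21125451) is the longest of all, with 17 regions over 5.57 Mb, and its ends were denser than its middle. Its last 2 regions, 125 kb in all, had 64, 41, 55, 46 and 64 reads. The 10 regions of the middle had 62, 36, 57, 62 and 64. Per length the last 2 regions were 41.3, 45.6, 38.6, 29.7 and 40.1 times as dense, with the lowest value in G2 (19.8 to 44.2). The first 5 regions, 446 kb, had 41, 20, 41, 36 and 31 reads and a mean of 6.71 times the density of the middle. The end region at 21022101 to 21125451 alone had 54, 34, 46, 38 and 47 reads. In the middle, the block at 20000005 to 20500000 had 5, 5, 2, 16 and 8.

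A denser end also occurred on chromosomes 14 and 22, whose long tracts look alike in layout. Both begin with a region of 7939 bp. The last 2 regions are 53146 and 5963 bp long on chromosome 14 and 53164 and 5962 bp on chromosome 22. The chromosome 14 tract (10067393 to 12783524) had 17, 13, 16, 10 and 29 reads and the chromosome 22 tract (12765168 to 15786171) 30, 26, 19, 17 and 21. The longer of these end regions had 2, 5, 3, 1 and 7 reads on chromosome 14 (12722513 to 12775659) and 8, 9, 3, 0 and 3 on chromosome 22 (15725151 to 15778315). Pooled over both chromosomes these regions were 14.2, 29.5, 10.9, 2.03 and 13.2 times as dense as the rest of the 2 tracts. The intervals lay above 1 in all libraries but G2, where the pair had 1 read (0.0494 to 12.3).

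The leading block of chromosome 14 (12000001 to 12500000) had 2, 1, 6, 2 and 8 reads. On chromosome 22 the block at 12779096 to 13000000 was highest in asynchronous cells, with 8, 2, 0, 3 and 2. Summed over each chromosome, chromosome 22 had 42, 41, 28, 25 and 39 reads and chromosome 14 had 21, 23, 22, 19 and 37. M was 1.73-fold asynchronous cells on chromosome 14 (0.988 to 3.11), within counting error.

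**Figure D5:**
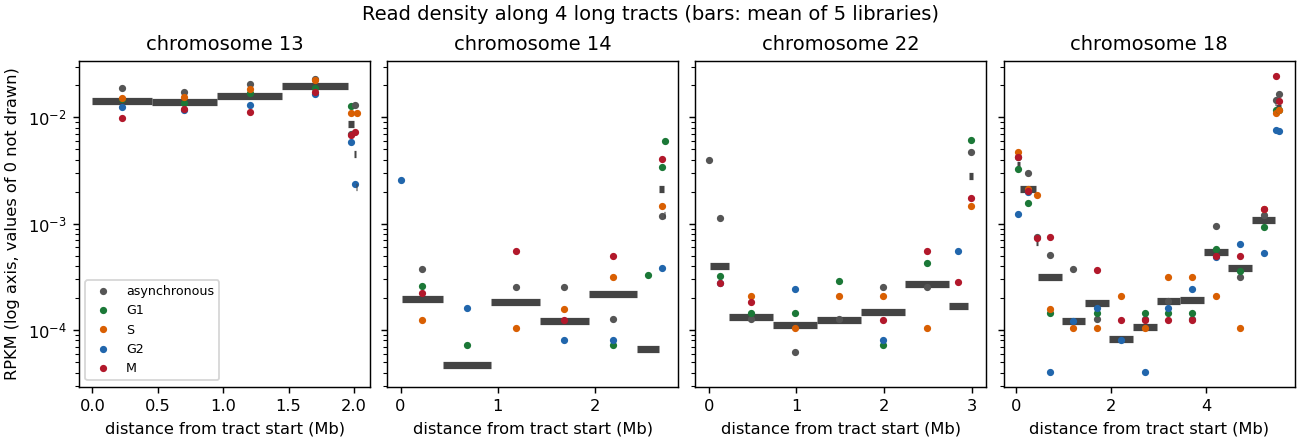
RPKM (log axis) of each region along the long tracts of chromosomes 13, 14, 22 and 18, against the distance from the tract's start. Bars span each region at the mean of the 5 libraries and points are single libraries. The chromosome 13 blocks lie near 0.0157 RPKM, whereas on chromosome 18 the last 2 regions have 39.4 times the density of the middle.

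Outside the long and the leading tracts the acrocentric chromosomes had few reads. Their 275 such regions cover 3.98 Mb and had 27, 40, 29, 35 and 42 reads, with reads in 56 regions. The 115 regions of the other 6 cover 2.46 Mb and had 298, 221, 262, 208 and 195, with reads in 48. The log2 ratios to asynchronous cells were 0.76, -0.16, -0.26 and 0.61 for the acrocentric regions and -0.24, -0.45, -1.16 and -0.64 for the others. Most reads of the others were from chromosome 9, which had 283 reads in asynchronous cells and 191 in M. Only 33 and 40 of these lay in its long tract. The comparison is thus mainly one with chromosome 9. The difference was 1.25 in M (0.50 to 1.99, still above 0 with reads divided by 2). It was 0.998 in G1 (0.25 to 1.75) and 0.89 in G2 (0.13 to 1.66), where the interval held 0 once reads were divided by 2. In S it was 0.29 and within counting error.

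Reads were also counted by length and orientation. The 275 regions of 1 to 10 kb had 256, 213, 247, 210 and 180 reads, the 210 regions of 10 to 100 kb 2309, 2494, 3072, 2326 and 1649, and the 75 regions from 100 kb 5310, 4087, 5659, 6072 and 4146. Of the longest class, 72 of 75 had reads. These length classes keep the leading 3 tracts, whose regions hold most reads of the classes from 10 kb. They thus mainly restate those tracts and show no pattern of length by itself. The leading 3 tracts are all in complement orientation. Without them the complement regions had 310, 214, 269, 210 and 235 reads, with a log2 ratio of -0.42 in M. The 320 regions in plus orientation had 333, 250, 318, 343 and 409 reads, with 0.27 in M. Orientation is that of the repeat in the assembly, and whether reads keep the RNA strand was not given in the sources used here.

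Single regions were compared where both libraries together held at least 10 reads. In M, 11 of 46 family 2 regions were at least 2-fold higher than in asynchronous cells and 6 at least 2-fold lower. Over all regions of at least 1 kb on any chromosome the shares were 21% and 9%. In G2, 1 of 30 was higher and 11 were lower, against 9.76% and 28% of all. In G1, 1 of 30 was higher and 5 lower, against 12.8% and 16.7%, and in S 4 of 31 were higher and 5 lower, against 9.09% and 15.6%. The family 2 regions enter these backgrounds themselves. With at least 20 reads in both libraries together, 0 of 22 regions were 2-fold higher in M, against 7.14% of all, and 6 of 21 were lower in G2, against 25%.

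By chromosome, 6 of 11 had a higher level in G1 than in the asynchronous library, against 65.2% of 23 chromosomes. In S 4 were higher (34.8%), in G2 2 (30.4%) and in M 5 (69.6%). From G2 to M, 10 of the 11 had a higher level, against 95.7% of the 23 chromosomes. Of these intervals 8 lay above 1, or 6 with reads divided by 2, and 0 of the 11 lay below. Chromosome 8 led with 4.58-fold (2.33 to 9.68). Chromosome 13 was the exception at 0.947-fold (0.867 to 1.03).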

How the data were processed

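EU-labelled nascent RNA of RPE1 cells was sequenced as paired reads of 150 nt in 5 libraries, per the labels' protocols, and grouped by the cell cycle label. The authors deposited 1559 alpha-satellite regions with 1 RPKM value each per library (reads scaled to 1 kb and to 1000000 reads). Builds T2T-CHM13 and hs1 and the tools bedtools, deepTools, Bowtie2 and fastp appear in the submitters' processing notes. Their versions, the placing of reads that map to several arrays and the counting of mates were not given in the sources used here. That placing sets the split between arrays of like sequence, and RPKM shifts in all regions with the rest of the library.

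RPKM times region length was a whole multiple of 1 step in each library, so reads and library totals were recovered, with 100% of values whole within 1e-06 reads. In the order asynchronous, G1, S, G2 and M the totals were 31759858, 27848516, 38087363, 49371478 and 32312897 reads. RPM are summed reads over these totals. Ratios have exact conditional (Clopper-Pearson) 95% intervals, levels exact Poisson intervals, and differences of log2 ratios intervals from the log odds ratio of the reads. No count model was fitted, since each group has 1 library. Recovery and intervals were checked on simulated independent Poisson reads. These held no mates or PCR copies, so the check does not cover intervals where such copies occur. Levels at 0 carry a limit of 3 reads.

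Named regions are the most read region of each chromosome, the 10 with the largest mean share and, in each stage, the 2 regions up most and the 2 down most by ratio with at least 10 reads in both libraries. The tract with most reads and the longest tract of each chromosome are named too. Sub-groups within chromosomes 2, 9, 13, 14, 18, 20, 21 and 22 were chosen after their values were seen. The members, lists and tracts were chosen with earlier results of these data known. Alternatives covered leading tracts, single chromosomes, length, weighting, mates, read minimum, fold and a pseudocount. Computation used Python 3.11.15 with scipy 1.17.1, numpy 2.4.6, pandas 2.3.3 and matplotlib 3.10.9.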

Additional observations from a re-analysis of the deposited data

Results flagged for a closer look

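The acrocentric chromosomes and the other 6 went opposite ways in G1, with a difference of -0.47 in log2 ratio to asynchronous cells over all regions. Chromosome 2 lay above asynchronous cells in some stages and below in others, and each interval, reads divided by 2, lay apart from 0. Its log2 ratio in G1 exceeded that in G2 by 1.11 and that in M by 1.02. Its ratio in S exceeded that in G2 by 0.89 and that in M by 0.81. None of these differences was tested between stages, since each stage has 1 library.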

How the results depend on the processing

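With 1 library per group leaving out a library leaves no value for its group. No paired analysis was possible because each group has 1 library. The values below are log2 ratios to asynchronous cells unless another stage is named, or differences of 2 such ratios, that moved by more than the counting interval or changed sign. The cause was not tested, beyond the smaller set of regions that each setting keeps. Long tracts without chromosome 13 were chosen after seeing the data.

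Without the tract with most reads the family 2 total was 0.11 for G1, 0.015 for S, -0.66 for G2, -0.49 for M, -0.095 for S over G1, -0.67 for G2 over S, 0.17 for M over G2 and 0.60 for G1 over M. Without the tract with most reads the acrocentric minus other 6 difference was 0.15 for G2 and -0.049 for M. Without the tract with most reads the family 2 minus other chromosomes difference was -0.15 for G1 and -0.41 for G2. Without the 3 tracts with most reads the family 2 total was -0.28 for G1, -0.39 for S, -0.85 for G2, -0.023 for M, -0.11 for S over G1, 0.83 for M over G2 and -0.26 for G1 over M. Without the 3 tracts with most reads the acrocentric minus other 6 difference was 0.60 for G1, 0.45 for S, 0.42 for G2 and 0.81 for M. Without the 3 tracts with most reads the family 2 minus other chromosomes difference was -0.54 for G1, -0.15 for S, -0.61 for G2 and -0.38 for M. Without chromosomes 13 and 21 the family 2 total was 0.29 for G1, 0.096 for S, -0.71 for G2, -0.19 for S over G1, -0.81 for G2 over S, 0.30 for M over G2 and 0.70 for G1 over M. Without chromosomes 13 and 21 the acrocentric minus other 6 difference was -0.12 for G1, -0.13 for S, 0.17 for G2 and 1.15 for M. Without chromosomes 13 and 21 the family 2 minus other chromosomes difference was 0.029 for G1, 0.34 for S and -0.47 for G2. Without chromosome 2 the family 2 total was -0.19 for G1, -0.18 for S, 0.019 for S over G1, -0.29 for G2 over S and 0.19 for G1 over M. Without chromosome 2 the acrocentric minus other 6 difference was 0.21 for G1, 0.30 for S, 0.48 for G2 and -0.23 for M. Without chromosome 2 the family 2 minus other chromosomes difference was -0.45 for G1. Without chromosome 13 the family 2 total was 0.024 for G1. Without chromosome 21 the family 2 total was 0.11 for G1, 0.015 for S, -0.66 for G2, -0.49 for M, -0.67 for G2 over S, 0.17 for M over G2 and 0.60 for G1 over M. Without chromosome 21 the acrocentric minus other 6 difference was 0.15 for G2 and -0.050 for M. Without chromosome 21 the family 2 minus other chromosomes difference was -0.15 for G1 and -0.42 for G2. From 10000 bp on the family 2 minus other chromosomes difference was -0.16 for G1. Over long tracts only the family 2 total was -0.34 for G1, -0.19 for S, -0.59 for G2, 0.14 for S over G1, 0.20 for M over G2 and 0.056 for G1 over M. Over long tracts only the acrocentric minus other 6 difference was 0.27 for G1, 0.34 for S, 0.12 for G2 and -0.79 for M. Over long tracts only the family 2 minus other chromosomes difference was -0.51 for G1 and 0.032 for S. Over long tracts except that of chromosome 13 the family 2 total was -0.46 for G1, -0.37 for S, -0.67 for G2, 0.33 for M, 0.092 for S over G1, -0.31 for G2 over S, 1.004 for M over G2 and -0.79 for G1 over M. Over long tracts except that of chromosome 13 the acrocentric minus other 6 difference was 0.48 for G1, 0.53 for S, 0.075 for G2 and 0.42 for M. Over long tracts except that of chromosome 13 the family 2 minus other chromosomes difference was -0.63 for G1, -0.14 for S, -0.43 for G2 and 0.022 for M. Weighting regions alike means the ratio of mean RPKM over regions, whatever their length. The regions of highest RPKM, many of them short, then weigh most, so the values are not those of a typical region. With regions weighted alike the family 2 total was -0.13 for S, -0.67 for G2, -0.65 for M, -0.13 for S over G1, -0.54 for G2 over S, 0.027 for M over G2 and 0.65 for G1 over M. With regions weighted alike the acrocentric minus other 6 difference was -0.026 for G1, 0.063 for S, 0.41 for G2 and 0.46 for M. With regions weighted alike the family 2 minus other chromosomes difference was -0.73 for G1, -1.03 for G2 and -1.44 for M. Chromosomes 4, 8, 9, 14, 15, 18, 20 and 22, left out 1 at a time, and the minimum of 500 bp changed none of these 3 kinds of value in that way. Each of these chromosomes held only 0.220% to 2.86% of the family 2 reads, so leaving it out of the sums over all regions could change little. They were not left out 1 at a time from the sets without the 3 tracts. Dividing reads by 2 widens the interval and leaves the value as it is, so it could change no value. Over all settings and stages 104 values of the total, 52 acrocentric differences and 58 differences from other chromosomes kept their sign and stayed within the interval. These numbers include the values with reads divided by 2, which could not move.

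Counts of chromosomes higher than in asynchronous cells were 6, 4, 2 and 5 in G1, S, G2 and M. With the longest tract of each chromosome alone there was 1 in G1 and 2 in S, and from 10000 bp on 2 in S. Regions past 2-fold depended on the minimum of reads. With at least 5 reads in both libraries there were 6 higher and 12 lower in G1, 12 higher and 16 lower in S, 9 higher and 25 lower in G2, 18 higher and 12 lower in M. With at least 20 reads there were 2 lower in G1, 2 higher and 1 lower in S, 6 lower in G2, 0 higher and 3 lower in M. With any read there were 42 higher and 41 lower in G1, 39 higher and 48 lower in S, 45 higher and 60 lower in G2, 47 higher and 36 lower in M. At a fold of 1.5 there were 5 higher and 8 lower in G1, 2 higher and 18 lower in G2, 14 lower in M. At a fold of 3 there were 2 higher in S, 0 higher and 6 lower in G2, 6 higher in M. On the log2 scale with 0.1 RPKM added there were 0 higher and 0 lower in G1, 0 higher and 0 lower in S, 0 higher and 0 lower in G2, 0 higher and 1 lower in M. On the log2 scale with 0.01 RPKM added there were 0 higher and 0 lower in G1, 0 higher and 1 lower in S, 0 higher and 5 lower in G2, 0 higher and 3 lower in M. A pseudocount of 0.1 RPKM lies far above most regions, whose mean is 0.00606 RPKM over all 560 together. Depth limits single regions most, with a median of 2 to 4 reads where there were reads.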
